A study of Mus musculus with 45 samples.

Results

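The genes described here are 10 members of the Fanconi anaemia (FA) pathway, *Faap20*, *Faap24*, *Faap100*, *Fanca*, *Fancc*, *Fance*, *Fancg*, *Fancl*, *Fancd2* and *Fanci*, out of 55385 genes in each expression table. They were taken by symbol, all 10 were found, and all 10 passed the filter on low counts at every stage. The list was chosen by a readout, since it was drawn up with the response of these genes to GABPA degradation known, and *Faap20* was singled out for its loss in the inner cell mass (ICM). Their changes with degradation are therefore given as a description, without p-values. RNA was sequenced in 18 libraries from embryos or 2iES cells, all with the Gabpa-dTAG/dTAG genotype, in which both *Gabpa* alleles carry a degron tag. Controls carried the same tag and received the vehicle DMSO, and treated samples received dTAG13, a small molecule that recruits a ubiquitin ligase to the tagged GABPA protein. Late two-cell embryos (3 DMSO and 3 dTAG13 libraries) were treated with 1 μM dTAG13 from the mid-zygote. Morulae (2 and 2) were treated at 1 μM from the four-cell stage. The E4.5 ICM (2 and 2), treated at 1 μM from the early blastocyst, was freed of trophectoderm (TE) by immunosurgery and holds epiblast (EPI) and primitive endoderm (PrE) cells together. By the study's methods it was collected at the mid-blastocyst stage. The 2iES cells (2 and 2), a tagged mouse embryonic stem cell line for which single clones were picked, received 0.5 μM for 24 h. Embryos came from females of 7 to 8 weeks and males of 8 to 12 weeks.

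The FA pathway repairs DNA interstrand crosslinks, which block both replication and transcription. A nuclear core complex of FANCA, FANCB, FANCC, FANCE, FANCF, FANCG, FANCL and the associated proteins FAAP20 and FAAP100 acts as a ubiquitin ligase, with FANCL as its catalytic subunit, and FANCM with FAAP24 anchors it to DNA. It ubiquitinates the paired proteins FANCD2 and FANCI, after which nucleases, translesion polymerases and homologous recombination complete the repair. GABPA is a transcription factor of the ETS family, whose DNA motif is centred on the bases GGAA.

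In GRCm38 with GENCODE M21, *Faap20* (155249802 to 155256687, plus strand) and *Fancg* (43002343 to 43010506, minus strand) lie on chromosome 4. *Faap24* (35392152 to 35396836, minus) and *Fanci* (79391929 to 79450264, plus) lie on chromosome 7. *Fancl* (26386135 to 26471876, plus) and *Faap100* (120369055 to 120378764, minus) lie on chromosome 11. *Fancd2* lies on chromosome 6 (113531682 to 113597017, plus), *Fanca* on chromosome 8 (123268300 to 123318576, minus), *Fancc* on chromosome 13 (63285043 to 63497278, minus) and *Fance* on chromosome 17 (28313519 to 28326572, plus).

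The start regions are printed of 4 members called lower with dTAG13 in the E4.5 ICM or in 2iES cells, by the rule given below, that hold CGGAAG or CCGGAA. *Fanca* holds CGGAAG and *Fancg* CCGGAA, but neither was called with dTAG13, and they are not printed. The region of *Fancl*, which was called lower and holds neither string, is printed so that the letters can be compared. It does hold the shorter GGAA. Each printed region is the RefSeq promoter window of GRCm38.p6, 250 bases before to 50 after the annotated start, on the gene's own strand, 5′ to 3′. Capitals mark CGGAAG or CCGGAA on either strand (CTTCCG or TTCCGG when reversed), and where these overlap the capitals run on. *Faap20* is chr4:155249716-155250015, plus strand, *Fanci* is chr7:79392088-79392387, plus strand, *Fance* is chr17:28313280-28313579, plus strand, *Faap24* is chr7:35396718-35397017, minus strand and *Fancl* is chr11:26386834-26387133, plus strand.
Faap20: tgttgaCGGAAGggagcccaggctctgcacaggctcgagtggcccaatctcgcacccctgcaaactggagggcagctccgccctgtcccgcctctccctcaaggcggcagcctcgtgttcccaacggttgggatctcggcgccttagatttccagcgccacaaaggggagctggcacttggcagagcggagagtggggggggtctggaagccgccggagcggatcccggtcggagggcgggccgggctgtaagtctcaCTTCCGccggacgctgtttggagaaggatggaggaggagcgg
Fanci: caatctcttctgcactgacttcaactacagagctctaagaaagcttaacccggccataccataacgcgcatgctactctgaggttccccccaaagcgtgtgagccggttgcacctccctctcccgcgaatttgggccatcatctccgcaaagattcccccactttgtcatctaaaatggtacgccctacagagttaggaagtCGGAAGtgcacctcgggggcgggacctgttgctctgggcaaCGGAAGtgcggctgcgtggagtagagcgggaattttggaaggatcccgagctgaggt
Fance: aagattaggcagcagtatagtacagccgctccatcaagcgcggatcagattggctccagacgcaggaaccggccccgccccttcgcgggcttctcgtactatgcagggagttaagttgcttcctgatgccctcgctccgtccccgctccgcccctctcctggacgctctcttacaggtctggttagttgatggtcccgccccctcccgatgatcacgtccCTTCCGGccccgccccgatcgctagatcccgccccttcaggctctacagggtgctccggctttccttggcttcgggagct
Faap24: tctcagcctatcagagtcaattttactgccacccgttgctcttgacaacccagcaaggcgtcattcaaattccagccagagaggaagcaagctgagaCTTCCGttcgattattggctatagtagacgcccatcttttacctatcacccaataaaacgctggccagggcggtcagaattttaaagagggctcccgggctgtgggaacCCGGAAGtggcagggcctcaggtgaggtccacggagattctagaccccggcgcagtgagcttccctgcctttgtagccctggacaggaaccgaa
Fancl: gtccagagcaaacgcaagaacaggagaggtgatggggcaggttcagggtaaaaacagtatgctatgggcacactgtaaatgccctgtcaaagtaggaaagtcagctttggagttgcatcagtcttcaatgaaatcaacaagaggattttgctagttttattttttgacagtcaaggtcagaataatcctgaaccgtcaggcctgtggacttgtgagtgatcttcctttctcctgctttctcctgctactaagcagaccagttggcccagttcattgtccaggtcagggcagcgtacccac

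RefSeq windows were found for 9 of the 10 members, all but *Fancd2*. The letters CCGGAAG, chosen with the design, were found on either strand in 2 of the 9 windows, those of *Faap24* and *Fance*, and in 8.86% of all 32851 windows in the table. The shorter CCGGAA, which every CCGGAAG contains, was in 3 of 9, with *Fancg* added, and in 14.9% of all windows. The letters CGGAAG, which were chosen after the sequences had been seen and overlap both, were in 5 of 9 (*Faap20*, *Faap24*, *Fanca*, *Fance* and *Fanci*) and in 16.9% of all windows. The longer CGGAAGT, also chosen after the sequences had been seen, was in 3 of 9 (*Faap20*, *Faap24* and *Fanci*) and in 6.42% of all windows. In *Faap20* the reversed CGGAAGT begins 8 bases into the transcript counting the start as 1, and in *Fanci* CGGAAGT begins 48 and 7 bases before the start. In *Fance* the reversed CCGGAAG begins 30 bases before the start, and in *Faap24* CCGGAAG begins 44 bases before it. *Fancl*, *Fancc* and *Faap100* held none of the 4 letter strings in this window. Except for that of *Fanca*, the RefSeq starts lie inside the GENCODE genes, by 65533 bases in *Fancc*, 949 in *Fancl*, 409 in *Fanci*, 205 in *Fancg*, 164 in *Faap20* and 11 to 69 in *Faap24*, *Faap100* and *Fance*. A match is a string of letters and not a measured binding site. The study's binding and chromatin libraries were not analysed here.

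Expected counts summed to between 20449966 and 23718870 per library in late two-cell embryos, 9457933 and 12382705 in morulae, 18266057 and 20818291 in the E4.5 ICM and 20146785 and 27660132 in 2iES cells. Levels are given as FPKM, which is per length and can be set side by side between genes, and changes as log2 fold changes of counts fitted by edgeR, with their standard errors (SE). The length by which FPKM divides was estimated anew in each library, so an FPKM ratio and a fitted change of the same gene can differ. A gene was called when its adjusted p was under 0.05, its fold change at least 2 and its mean FPKM at least 1 in 1 of the groups. *Gabpa* RNA was higher with dTAG13 at every stage and does not read the degraded protein, so it checks no label. In late two-cell embryos its FPKM was 111, 125 and 90.9 in controls against 170.1, 153 and 163 after dTAG13, and in the E4.5 ICM 11.0 and 12.0 against 30.4 and 29.9. The markers fixed for each stage were present where the labels place them. The 7 late two-cell markers summed to 224 to 678 FPKM in late two-cell libraries and to at most 9.89 FPKM in morulae, the 9 epiblast markers to 618 to 621 FPKM in the DMSO ICM and 457 to 609 FPKM in DMSO 2iES cells, and no PrE marker reached 1 FPKM in 2iES cells. The study describes its RNA replicates as biological ones. The labels name no litter or culture for them, and p-values measure the spread between these libraries. In the E4.5 ICM that spread was small (biological coefficient of variation 0.0237, against 0.284 in late two-cell embryos, 0.213 in morulae and 0.159 in 2iES cells).

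*Faap20*, which binds FANCA and ubiquitin and keeps the core complex together, was lower with dTAG13 at every stage and nearly absent in the treated E4.5 ICM. The late two-cell controls had 11.9, 13.5 and 8.38 FPKM and the treated embryos 4.07, 4.20 and 6.54 FPKM. The morula controls had 41.5 and 42.9 FPKM and the treated morulae 18.9 and 21.4 FPKM. The groups did not overlap at either stage. The ICM controls had 33.5 and 33.6 FPKM and both treated libraries 0.12 FPKM. In 2iES cells the controls had 47.7 and 38.1 FPKM and the treated libraries 0.61 and 1.47 FPKM. The separation between the groups was thus many times the spread within them in the ICM and in 2iES cells. In counts, the ICM held 632 and 595 with DMSO and 2 and 2 with dTAG13, and 2iES cells held 1224 and 986 against 13 and 24. Taken against a floor of 3 counts per library, *Faap20* was at least 189-fold lower in the treated ICM. It passed the count filter in the ICM through the DMSO libraries alone. The fitted log2 fold change was -1.24 (SE 0.29) in late two-cell embryos, -0.98 (SE 0.23) in morulae and -5.63 (SE 0.34) in 2iES cells. *Faap20* was called lower at the late two-cell stage, in the ICM and in 2iES cells, and was not called in morulae. In 2iES cells the change was -5.12 without dTAG13 replicate 1 and -6.33 without dTAG13 replicate 2. Without DMSO replicate 1 or 2, or without dTAG13 replicate 1 or 2, the late two-cell call was lost. In morulae *Faap20* was called lower when libraries were scaled by their totals only. No read of *Faap20* was shared with another gene by the authors' estimate (posterior SD of 0 counts in every library), and no annotated exon of another gene overlaps its exons.

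**Figure D1:**
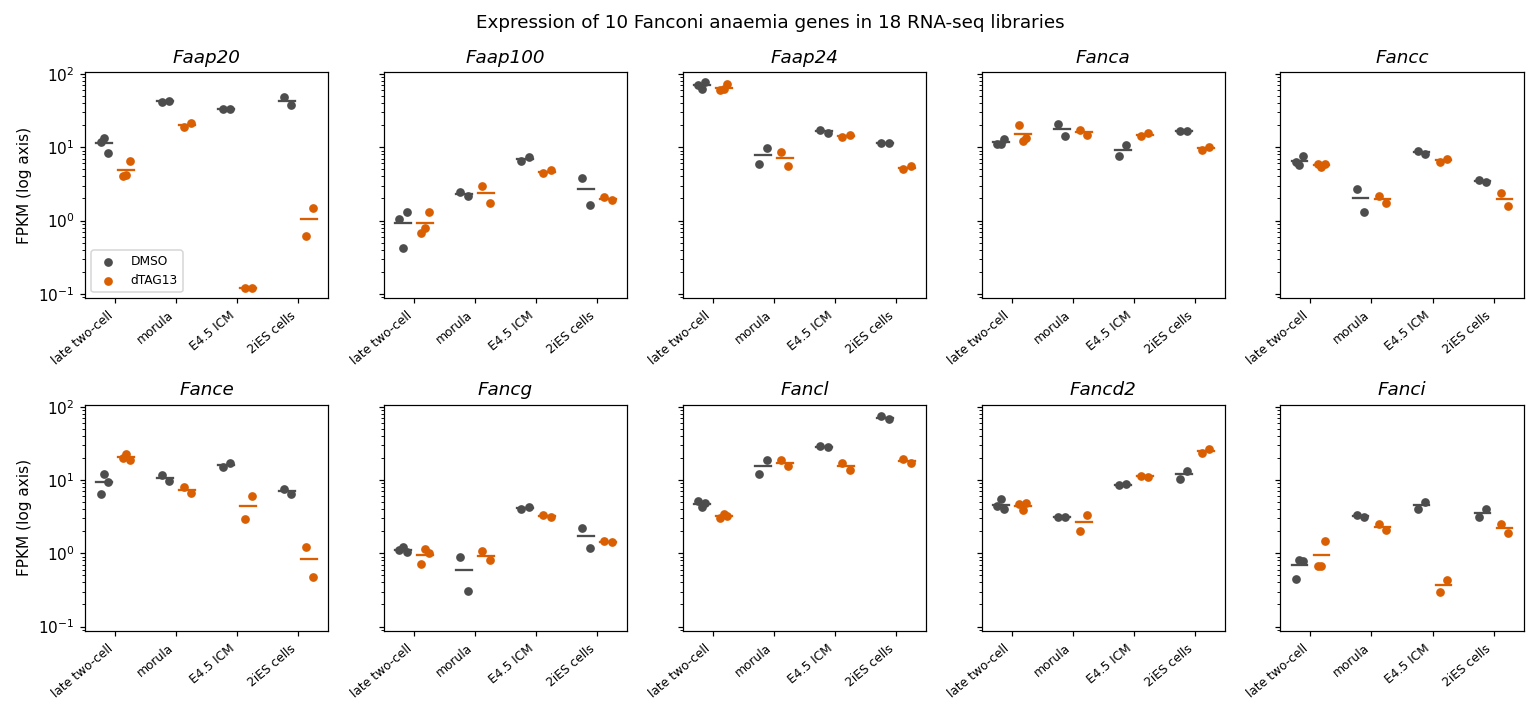
FPKM (log axis) of the 10 FA genes in each of the 18 libraries, by stage; grey points are DMSO libraries, orange points dTAG13 libraries, and lines mark group means. In *Faap20* both dTAG13 libraries of the E4.5 ICM sit at 0.12 FPKM, against 33.5 and 33.6 with DMSO, while *Faap24* is highest in the late two-cell embryos.

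Ordered by mean FPKM, the 8 groups ran for *Faap20* from DMSO 2iES cells (42.9 ± 6.79, SD, n = 2) through DMSO morulae (42.2 ± 0.95, n = 2), the DMSO ICM (33.5 ± 0.08, n = 2), dTAG13 morulae (20.1 ± 1.79, n = 2), DMSO late two-cell embryos (11.2 ± 2.61, n = 3), dTAG13 late two-cell embryos (4.94 ± 1.39, n = 3) and dTAG13 2iES cells (1.04, from 0.61 and 1.47) to the dTAG13 ICM (0.12 in both). Only the first pair of neighbours, DMSO 2iES cells and DMSO morulae, overlapped in their libraries. The 5 genes whose log2(FPKM + 1) followed *Faap20* most closely over the 18 libraries, out of 19450 genes expressed at a group mean of 1 FPKM or more somewhere, were *Prss36* (Pearson r = 0.95), *Mrps21* (0.95), *Ublcp1* (0.94), *Prkag1* (0.94) and *Lyrm2* (0.94). *Mrps21*, which encodes a protein of the mitochondrial small ribosomal subunit, had 395 to 422 FPKM in the DMSO ICM and 15.4 to 17.5 FPKM with dTAG13. *Lyrm2* had 58.5 to 62.5 FPKM in the DMSO ICM and 1.44 to 1.96 FPKM with dTAG13. With a pseudocount of 0.1, only *Prss36* stayed among the first 5, with *Oxld1* in first place (r = 0.96). The libraries differ in stage, treatment and depth, which the correlations do not separate, and the correlations are descriptions.

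In the E4.5 ICM, 4 of the 10 members were called lower (*Faap20*, *Fance*, *Fancl* and *Fanci*) and none higher. Of all 15840 genes tested at this stage, 13.2% were called lower and 12.1% higher. The median log2 fold change was -0.80 over the 10 members, also with *Faap20* at its bound, and 0.01 over all genes tested. In bulk samples, fewer cells of a type and less RNA per cell cannot be told apart. The study reports that EPI cell numbers did not yet differ between DMSO and dTAG13 embryos when these ICMs were collected. TE markers moved with the treatment in these libraries. Summed over 9 genes they reached 73.9 to 79.1 FPKM with DMSO and 854 to 860 FPKM with dTAG13, with 4 and 8 of the 9 at 1 FPKM or more. *Krt18* had 25.8 FPKM with DMSO and 525 FPKM with dTAG13, and *Elf5* 0.10 and 6.92 FPKM. The 9 epiblast markers summed to 618 to 621 FPKM with DMSO and 275 to 282 FPKM with dTAG13, and the 7 PrE markers to 257 to 262 and 340.2 to 343 FPKM. Of the 7 PrE markers, 4 had a positive fitted log2 fold change and 3 a negative one, with a median of 0.09. The part of these cell types in the members' changes was not tested.

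In 2iES cells, 5 of the 10 members were called lower (*Faap20*, *Faap24*, *Fance*, *Fancl* and *Fanci*) and none higher, where 15.6% of 15511 genes were called lower and 12.4% higher. The median log2 fold change was -0.96 over the members and 0.03 over all genes tested. TE markers summed to 135 to 166 FPKM with DMSO and 173 to 180 FPKM with dTAG13 in these cells, epiblast markers to 457 to 609 and 426 to 458 FPKM, and late two-cell markers to 9.29 to 54.9 and 40.2 to 117 FPKM. Their part in the members' changes was not tested. In late two-cell embryos *Faap20* was the 1 member called lower and none was called higher, where 3.63% of 17421 genes were called lower and 0.476% higher. In morulae no member was called by edgeR, nor by DESeq2, where 0.198% of 13667 genes were called lower and 0.154% higher. Of all morula calls 56.2% were lower, and 69.1% were lower with scaling by library totals, where *Faap20* was the 1 member called. Over the members the median log2 fold change was -0.03 in late two-cell embryos and -0.09 in morulae, and over all genes tested 0.02 and -0.02. Because the members were chosen with these contrasts known, the counts are descriptions of the list.

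**Figure D2:**
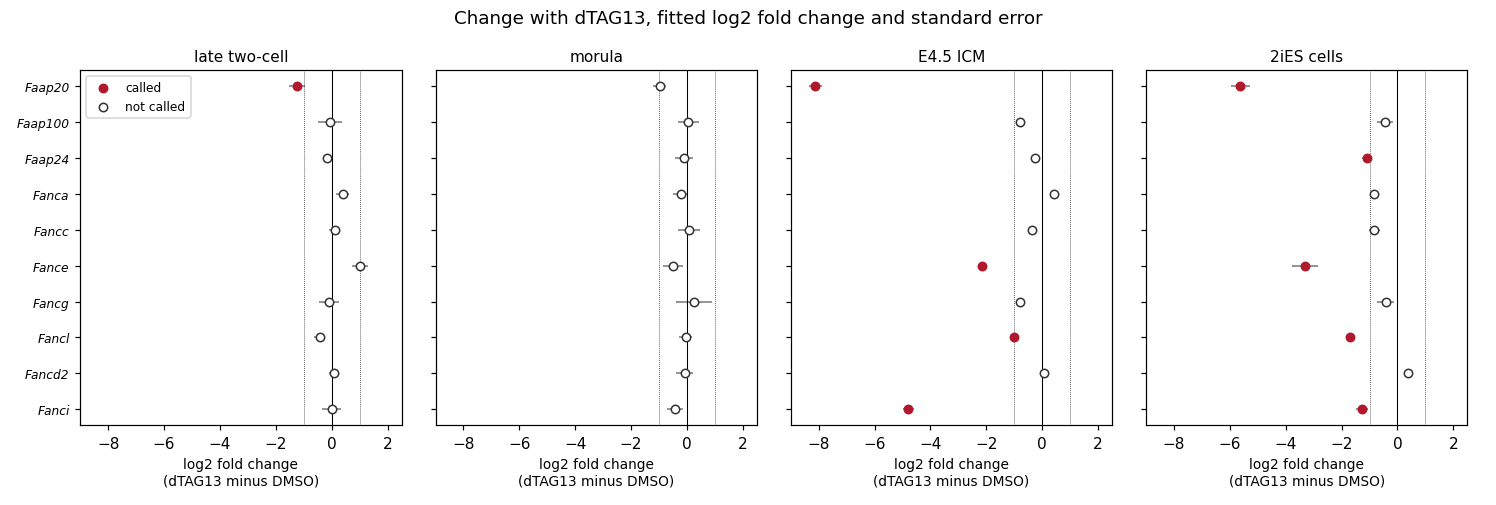
Fitted log2 fold change of the 10 FA genes (dTAG13 minus DMSO, horizontal axis) with its standard error, by stage; red points were called, open points were not, and dotted lines mark a 2-fold change. *Faap20* lies left of 0 in all 4 panels, and its point in the E4.5 ICM panel rests on 2 counts per dTAG13 library and depends on the fit's prior count.

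*Fance* encodes the core complex subunit that contacts FANCD2. Late two-cell controls had 6.43, 12.1 and 9.28 FPKM and treated embryos 19.8, 22.7 and 18.8 FPKM, every treated library being above every control. ICM controls had 15.2 and 16.8 FPKM and treated ICMs 2.93 and 6.00 FPKM, and 2iES cells had 7.53 and 6.51 FPKM in controls and 1.20 and 0.48 FPKM after dTAG13. Here every treated library was below every control. The fitted log2 fold change was 1.01 (SE 0.28) at the late two-cell stage, -0.50 (SE 0.37) in morulae, -2.15 (SE 0.16) in the ICM and -3.31 (SE 0.47) in 2iES cells. The late two-cell difference was not called in the fit of that stage, but was called higher with DESeq2, with library totals, without the count filter, with all 18 libraries in 1 fit and without DMSO replicate 2. In 2iES cells the treated libraries held 22 and 5 counts, so *Fance* passed the filter there through the DMSO libraries, and the change was -4.54 without dTAG13 replicate 1 and -2.76 without dTAG13 replicate 2. The estimated length of *Fance* was 630 to 652 bases with DMSO and 594 to 641 with dTAG13 in late two-cell embryos. In the ICM it was 1069 to 1109 and 809 to 1201 bases. The part of this length in the changes was not tested.

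*Fancl*, the ligase subunit, had 28.7 and 27.7 FPKM with DMSO and 17.1 and 13.6 FPKM with dTAG13 in the E4.5 ICM. In 2iES cells it had 73.7 and 68.3 FPKM with DMSO and 19.4 and 16.8 FPKM with dTAG13. The log2 fold change was -1.03 (SE 0.07) in the ICM, close to the 2-fold threshold, and -1.72 (SE 0.12) in 2iES cells. With library totals, or without dTAG13 replicate 2, *Fancl* was no longer called in the ICM. Late two-cell controls had 5.20, 4.22 and 4.87 FPKM and treated embryos 3.03, 3.39 and 3.23 FPKM, a log2 fold change of -0.43 (SE 0.20), and in morulae the groups overlapped (12.2 and 18.7 against 18.7 and 15.3 FPKM). *Vrk2*, a kinase gene on the opposite strand, overlaps 13.7% of the *Fancl* exon bases, and these libraries do not keep strand. *Vrk2* was higher with dTAG13 in the ICM, from 6.75 to 7.46 FPKM with DMSO to 16.3 to 19.5 FPKM with dTAG13 (log2 fold change 1.01, SE 0.10, adjusted p = 3.64e-11, edgeR).

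*Fanca*, a large core subunit and the partner of FAAP20, was higher with dTAG13 in the ICM and lower in 2iES cells. Its ICM controls had 7.63 and 10.6 FPKM and treated ICMs 14.1 and 15.4 FPKM. In 2iES cells, controls had 16.6 and 16.7 FPKM and treated cells 9.14 and 10.1 FPKM. The groups did not overlap in either. The log2 fold change was 0.42 (SE 0.13) in the ICM and -0.82 (SE 0.17) in 2iES cells, below the 2-fold threshold both times. Late two-cell controls had 11.0, 11.1 and 13.1 FPKM and treated embryos 20.2, 12.1 and 13.4 FPKM, and 1 treated library lay well above the others.

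*Faap100*, which stabilises the ligase module with FANCB and FANCL, had 6.40 and 7.40 FPKM with DMSO and 4.46 and 4.85 FPKM with dTAG13 in the ICM (log2 fold change -0.80, SE 0.12). *Fancg*, an adaptor that binds FANCA, had 3.98 and 4.30 FPKM with DMSO and 3.30 and 3.12 FPKM with dTAG13 in the ICM (-0.80, SE 0.15), and 0.31 to 1.20 FPKM in the late two-cell and morula libraries together. *Fancc*, which pairs with FANCE, had 8.80 and 8.20 against 6.20 and 7.00 FPKM in the ICM (-0.36, SE 0.10) and 3.54 and 3.32 against 2.35 and 1.56 FPKM in 2iES cells (-0.83, SE 0.20). None of these was called at any stage, and each was lower in every treated ICM library than in the controls. *Faap24*, the partner of FANCM, had 17.0 and 15.9 FPKM with DMSO and 13.6 and 14.9 FPKM with dTAG13 in the ICM (-0.25, SE 0.08). In 2iES cells it had 11.4 and 11.5 FPKM with DMSO and 5.05 and 5.50 FPKM with dTAG13 (-1.09, SE 0.16), and was called. Late two-cell controls had 70.0, 62.1 and 77.2 FPKM and treated embryos 59.8, 62.6 and 72.9 FPKM, and the groups overlapped.

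*Fanci* and *Fancd2* encode the ubiquitinated pair. *Fanci* had 4.06 and 4.98 FPKM with DMSO and 0.30 and 0.43 FPKM with dTAG13 in the E4.5 ICM, and 3.17 and 3.99 against 2.47 and 1.89 FPKM in 2iES cells. *Fancd2* had 8.43 and 8.85 FPKM with DMSO and 11.5 and 11.0 FPKM with dTAG13 in the ICM, and 10.5 and 13.3 against 23.7 and 26.2 FPKM in 2iES cells. In both settings *Fanci* was lower and *Fancd2* higher in FPKM, with no overlap between groups. The fitted changes of counts were -4.79 (SE 0.20) for *Fanci* and 0.07 (SE 0.07) for *Fancd2* in the ICM, and -1.27 (SE 0.20) and 0.39 (SE 0.15) in 2iES cells. In morulae they were -0.42 (SE 0.28) and -0.08 (SE 0.31). The counts of *Fancd2* in 2iES cells were 722 and 858 with DMSO and 953 and 791 with dTAG13, which overlap. The gap between the FPKM and the count of *Fancd2* came with its estimated length, which was 2517 to 2666 bases with DMSO and 1662 to 1771 bases with dTAG13 in 2iES cells, and 3380 to 3496 against 2857 to 3024 bases in the ICM. For *Fanci* the ICM length was 4338 to 4645 bases with DMSO and 1854 to 2586 bases with dTAG13, where only 13.1 and 13.6 counts remained of 378 and 399. *Polg*, a gene of the opposite strand that encodes the mitochondrial DNA polymerase, overlaps 16.0% of the *Fanci* exon bases and had 13.1 to 13.9 FPKM with DMSO and 12.9 to 14.1 FPKM with dTAG13 in the ICM. In late two-cell embryos *Fanci* stayed below 1 FPKM in all but 1 dTAG13 library (1.49 FPKM).

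Exons of a gene on the opposite strand also overlap those of *Fanca* (*Zfp276*, 10.5% of the exon bases), *Faap24* (*Rhpn2*, 7.02%), *Fancc* (*Gm16133*, 16.4%, and *2010111I01Rik*, 2.21%), *Fance* (*CT025652.1*, 3.26%) and *Fancd2* (*Fancd2os*, 3.24%), and reads there cannot be told apart by strand. *2010111I01Rik* was the one of these with the highest level in 2iES cells, at 30.5 to 35.8 FPKM with DMSO and 61.8 to 65.8 FPKM with dTAG13. *CT025652.1* had at most 1.85 FPKM and *Gm16133* at most 0.75 FPKM in any library.

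The DMSO libraries show how the 10 genes change between stages without degradation. They are the same libraries that serve as controls above, and the list was drawn up with earlier results of these data known. The adjusted p-values of the members below are therefore not independent of how the list was chosen. From the late two-cell stage to the morula, *Faap20*, *Faap100*, *Fancl* and *Fanci* rose and *Faap24* fell. *Faap20* rose 4.02-fold (log2 fold change 2.01, SE 0.21, adjusted p = 3.40e-06), *Fanci* 5.51-fold (2.46, SE 0.26, adjusted p = 3.51e-06), *Fancl* 3.04-fold (1.60, SE 0.18, adjusted p = 6.03e-06) and *Faap100* 2.76-fold (1.46, SE 0.33, adjusted p = 0.0017), all by the edgeR quasi-likelihood test adjusted over all genes. *Faap24* had 69.8 ± 7.54 FPKM (SD, n = 3) at the late two-cell stage, the highest of the 10, and 7.79 ± 2.59 FPKM (n = 2) in morulae, a log2 fold change of -3.11 (SE 0.23, edgeR adjusted p = 1.32e-07). So 4 of 10 members were called higher and 1 lower, where 22.6% of 19830 genes were called higher and 27.7% lower, and the median log2 fold change was 0.65 over the members and -0.28 over all genes tested. Without morula DMSO replicate 1, *Fancc* and *Fancg* were also called lower, which makes 3.

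From the morula to the E4.5 ICM, 5 members were called higher and none lower, where 16.0% of all genes were called higher and 13.2% lower. *Fancg* rose 6.13-fold (log2 fold change 2.62, SE 0.47, edgeR adjusted p = 0.00067), *Fancc* 2.86-fold (1.52, SE 0.32, adjusted p = 0.00229), *Faap100* 2.57-fold (1.36, SE 0.35, adjusted p = 0.00665), *Fancd2* 2.36-fold (1.24, SE 0.22, adjusted p = 0.000616) and *Fance* 2.03-fold (1.02, SE 0.34, adjusted p = 0.0287). *Fancg* had 0.89 and 0.31 FPKM in the morulae and 3.98 and 4.30 FPKM in the ICM. Its log2 fold change was 3.46 without morula DMSO replicate 1 and 2.08 without morula DMSO replicate 2, and that of *Fancc* was 2.13 without morula DMSO replicate 1. *Faap20* did not pass (33.5 ± 0.08 against 42.2 ± 0.95 FPKM, adjusted p = 0.119). Without E4.5 ICM DMSO replicate 2 the count was 3, since *Faap100* and *Fance* were no longer called, and *Fance* also lost its call without either morula library, without ICM replicate 1, with RLE size factors and with DESeq2. TE markers summed to 450 to 455 FPKM in DMSO morulae and to 73.9 to 79.1 FPKM in the DMSO ICM, so that the cells compared differ in lineage.

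Between the E4.5 ICM and 2iES cells, *Fancl* was the 1 member called, 3.09-fold higher in 2iES cells (log2 fold change 1.63, SE 0.19, edgeR adjusted p = 4.35e-05), where 12.0% of all genes were called higher and 12.7% lower. Its FPKM was 71.0 ± 3.83 (SD, n = 2) in 2iES cells, the highest of the 10 there, against 28.2 ± 0.69 (n = 2) in the ICM. *Faap20* (log2 fold change 0.85, SE 0.23, adjusted p = 0.0094) and *Fanca* (0.94, SE 0.25, adjusted p = 0.0105) passed the adjusted threshold of edgeR below a 2-fold change. *Fance* passed it in the other direction (-0.90, SE 0.33, edgeR adjusted p = 0.0462), also below a 2-fold change. Scaling by library totals moved the median of all genes from 0.00 to -0.33 in this contrast and the share of calls that were lower from 51.4% to 75.4%. It then called *Faap100*, *Fancc*, *Fance* and *Fancg* lower. So no direction is given for *Faap100*, *Fancc* and *Fancg*, and *Fance* is given only as passing the adjusted threshold. PrE markers summed to 257 to 262 FPKM in the DMSO ICM and to 0.31 to 0.66 FPKM in DMSO 2iES cells, so these samples also differ in lineage. Stage and library preparation cannot be told apart in any of the 3 contrasts, and embryos and cultured cells differ in more than stage.

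**Figure D3:**
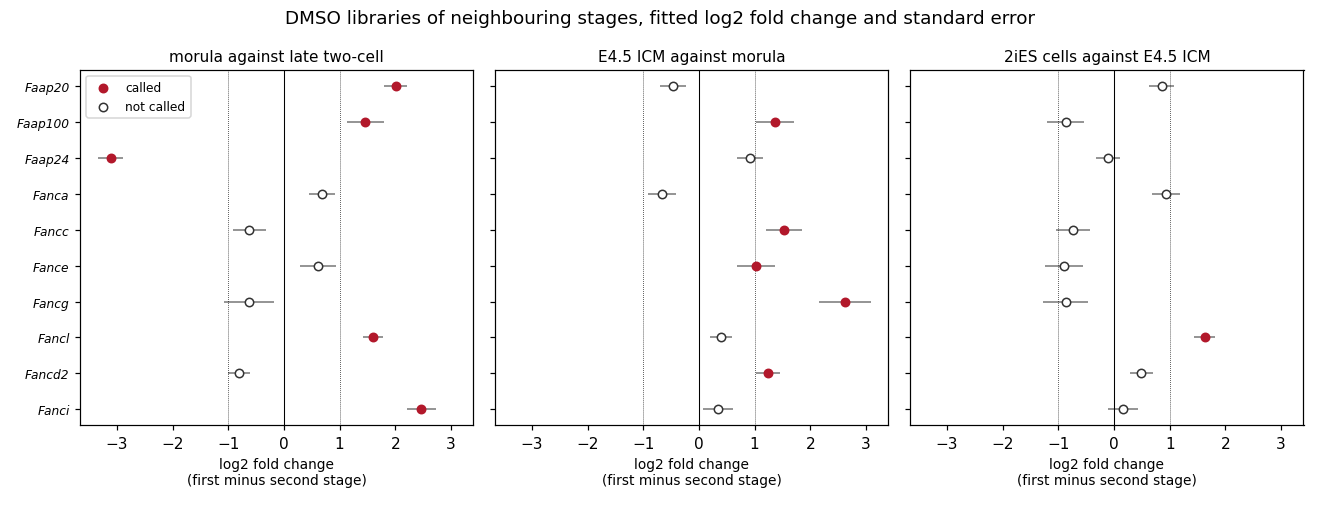
Fitted log2 fold change of the 10 FA genes between DMSO libraries of neighbouring stages (first minus second named stage, horizontal axis) with its standard error; red points were called, open points were not, and dotted lines mark a 2-fold change. In the fit shown, *Faap24* is the only member called lower, from the late two-cell stage to the morula, and *Fancl* the only member called in the last panel.

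The other genes of the pathway, 23 in all, were not among the members, but their list was also drawn up with earlier results of these data known. Genes named from it below were picked by their calls and changes. The p-values given for this list are therefore not independent of how the list and the named genes were chosen. In the E4.5 ICM 4 of the 23 were called lower and none higher, against 13.2% and 12.1% of all genes. In 2iES cells 6 were called lower and 1 higher, against 15.6% and 12.4% of all genes. The median log2 fold change of the 23 was -0.18 in the ICM and -0.40 in 2iES cells. None (0) was called in late two-cell embryos or morulae by edgeR or by DESeq2, and 4 and 3 of the 23 had an unadjusted p under 0.05 in edgeR, against 21.3% and 13.6% of all genes.

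Among the nucleases and their regulators (6 genes), *Ercc1*, *Mus81* and *Eme1* fell in both settings. ERCC1 forms with XPF the nuclease that unhooks a crosslink, and MUS81 with EME1 cuts stalled forks. *Ercc1* had 66.3 and 66.6 FPKM with DMSO and 10.8 and 13.3 FPKM with dTAG13 in the ICM (log2 fold change -2.40, SE 0.08, edgeR adjusted p = 1.61e-26), and 108 and 94.8 against 18.5 and 20.7 FPKM in 2iES cells (-2.44, SE 0.14, adjusted p = 4.85e-05). *Mus81* changed by -1.89 (SE 0.12, edgeR adjusted p = 5.17e-17) in the ICM and -2.39 (SE 0.34, adjusted p = 0.00144) in 2iES cells, and *Eme1* by -1.39 (SE 0.09, adjusted p = 3.47e-17) and -1.09 (SE 0.16, adjusted p = 0.00175). *Fan1*, a nuclease recruited by ubiquitinated FANCD2, rose in 2iES cells from 0.61 and 0.55 FPKM to 1.79 and 1.27 FPKM (1.32, SE 0.29, edgeR adjusted p = 0.00782), and without dTAG13 replicate 1 no other pathway gene was called higher there.

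Of the downstream repair genes (11), *Mad2l2*, a subunit of the translesion polymerase zeta, fell in both settings. It had 64.8 and 68.8 FPKM with DMSO and 13.2 and 14.6 FPKM with dTAG13 in the ICM (-2.28, SE 0.07, edgeR adjusted p = 5.35e-26), and 85.5 and 65.0 against 3.80 and 4.61 FPKM in 2iES cells (-4.14, SE 0.22, adjusted p = 4.04e-05). Of the other core complex and anchor genes with the E2 enzyme (6), *Cenps*, a histone-fold partner of FANCM, was called lower in 2iES cells (-1.68, SE 0.16, edgeR adjusted p = 0.000324). Whether a gene differed between the ICM and 2iES cells was not tested.

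**Figure D4:**
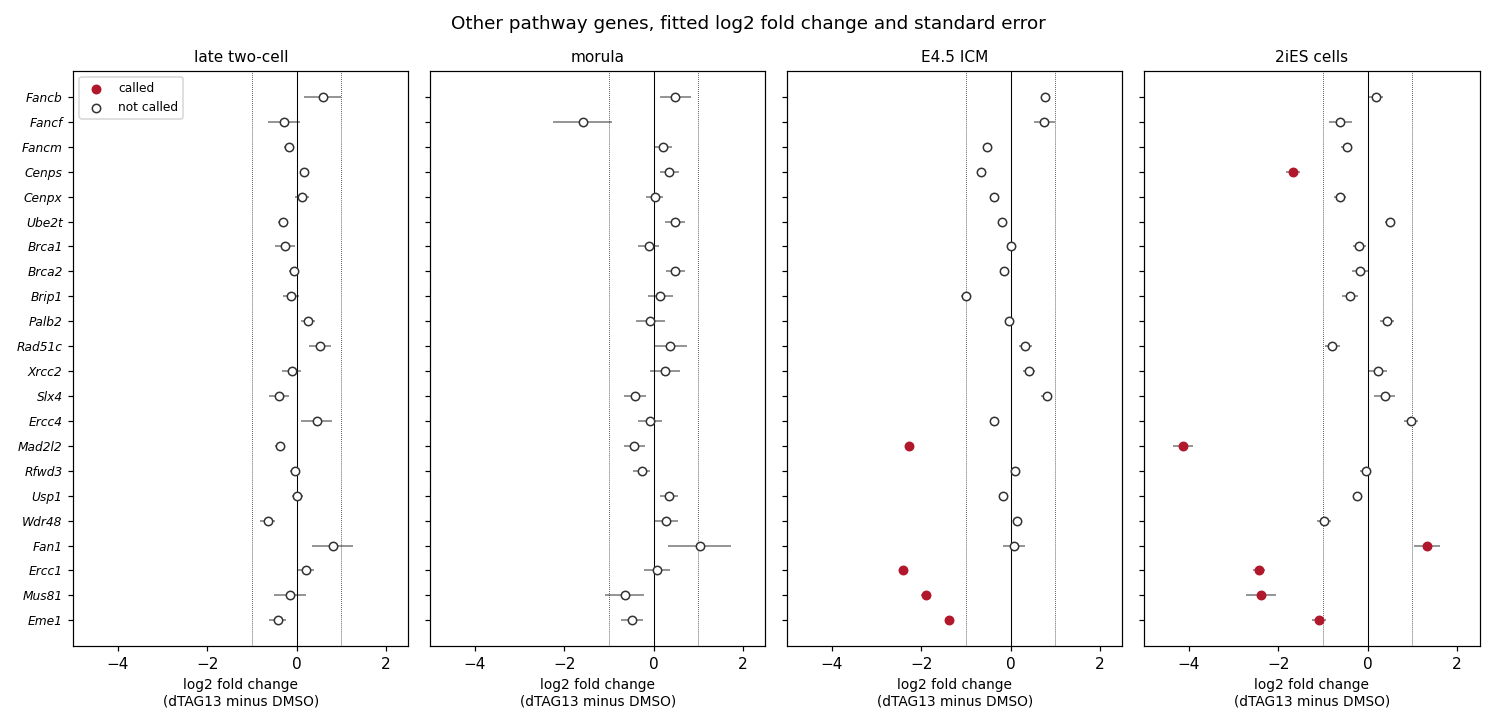
Fitted log2 fold change of the other pathway genes, with 1 of the 23 left out (dTAG13 minus DMSO, horizontal axis) with its standard error, by stage; red points were called, open points were not, and dotted lines mark a 2-fold change. *Mad2l2*, *Ercc1*, *Mus81* and *Eme1* are the genes called lower in both the E4.5 ICM and 2iES cells.

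The FA pathway acts mainly in S phase, and the summed level of S phase genes was lower in the same libraries. The 16 S phase genes summed to 1639 to 1642 FPKM with DMSO and 1217 to 1256 FPKM with dTAG13 in the E4.5 ICM, and to 1609 to 1679 and 978 to 993 FPKM in 2iES cells. In the ICM 5 of the 16 were called lower, against 13.2% of all genes, and in 2iES cells 6, against 15.6%, with none called higher, and the median log2 fold changes were -0.61 and -0.78. At an adjusted p under 0.05 in edgeR and any fold change, 12 were lower and 4 (*Rrm1*, *Rrm2*, *Cdc6* and *Ccne1*) higher in the ICM, where 33.8% of all genes were lower and 32.2% higher. These 4 were picked out after their values had been seen. *Mcm3*, a subunit of the replicative helicase, was called lower at the late two-cell stage as well, from 32.6, 27.9 and 32.6 FPKM to 11.8, 11.8 and 14.0 FPKM (log2 fold change -1.28, SE 0.14, edgeR adjusted p = 0.000233). *Mcm3* had 105 and 101 FPKM with DMSO and 31.5 and 32.5 FPKM with dTAG13 in the ICM (-1.86, SE 0.04, edgeR adjusted p = 7.73e-31). The S phase list was also drawn up with earlier results of these data known, and *Mcm3* was named for its change. Its adjusted p-values are therefore not independent of that choice. The part of S phase gene levels in the members' changes was not tested.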

How the data were processed

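RNA-seq libraries were made from embryos or cells with SMART-Seq v4 and Nextera XT, which keep no strand. Per the study's methods, the authors used Trimmomatic 0.39 for trimming, STAR for alignment to GRCm38 and RSEM for quantification. The deposited tables give expected counts, TPM and FPKM per gene, which RSEM estimates with reads that fit several genes divided between them. The authors also deposited RSEM's posterior SD of each count, a score of read ambiguity. TPM was used only as an alternative to FPKM.

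After rounding to whole numbers, expected counts were compared with edgeR 4.0.16 (limma 3.58.1, R 4.3.3) by the quasi-likelihood test with TMM scaling and Benjamini-Hochberg adjustment over all genes tested, those reaching 10 counts in a number of libraries no lower than the size of the smaller group. Each stage was fitted alone, and the 9 DMSO libraries were fitted together. DESeq2 1.42.0, RLE and total scaling, no filter, no fold threshold, the mean FPKM over all libraries, a fit of all 18 libraries, a replicate block and leaving out each library were the alternatives. The fits were tested on simulated counts with known changes. Gene names came from GENCODE M21 (54487 identifiers matched with version, 657 without, and 241 had no name), and promoter windows from RefSeq, GRCm38.p6. Python 3.11.15 and pandas 2.3.3 were used for tables. The floor of 3 counts covers counting error alone, because amplified reads carry no molecular identifiers.

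The members and lists were chosen with earlier results of these data known. Named genes are the 10 members, *Gabpa*, at most 3 called genes with the largest change per list and stage, the 5 genes most like *Faap20*, and genes whose exons overlap a member. *Oxld1*, and *Eme1* in 2iES cells, were named outside this rule after their values were seen. Replicate numbers in the labels did not pair the libraries: deviations of same-numbered libraries correlated at 0.019, 0.051 and 0.055 at the late two-cell stage, 0.01 in morulae, 0.01 in the E4.5 ICM and -0.133 in 2iES cells. Every pair of replicates differed by more than sampling noise, by 1.62 and 1.69 times in the E4.5 ICM and by 2.86 to 16.2 times elsewhere. 1 gene of the other pathway genes is counted in its list but is not reported here by name.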

Additional observations from a re-analysis of the deposited data

Results flagged for a closer look

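*Fance* and *Fanca* had every treated library on one side of the controls at one stage and on the other side at another. In the E4.5 ICM the groups did not overlap in the FPKM of any member. The share of all genes that change sides between stages in this way was not computed. For *Fance* the log2 fold change was 1.01 at the late two-cell stage, with every treated library higher, and -0.50 in morulae, -2.15 in the E4.5 ICM and -3.31 in 2iES cells, with every treated library lower. For *Fanca* it was 0.42 in the E4.5 ICM and -0.82 in 2iES cells. The difference between stages was not tested for either gene, since both were chosen with these changes known. Groups of 2 or 3 libraries are too small for a check of single outlying libraries.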

How the results depend on the processing

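Of the counts of called genes recomputed under the alternatives, 247 stayed within 1.5 times their value and 31 did not. Of the other recomputed values, 679 moved by less than the spread between replicates and 66 by more, and no called change of a member turned its sign. The member called higher in late two-cell embryos, where there was 0 in the fit of that stage, was *Fance*, and it made 1 with library totals, with DESeq2, without the count filter, with all 18 libraries and with the replicate block. The replicate block changed no other count by more than 1.5 times, and the numbers do not pair the libraries. Crossed replicate numbers in 2iES cells, chosen after seeing the data, gave 5 members and 6 other pathway genes lower and 1 other pathway gene higher. In morulae, library totals called 1 member lower, against 0. Without the fold-change threshold, 8 members were lower and 1 higher in the E4.5 ICM, where 33.8% of all genes were lower and 32.2% higher under that rule. Among the other pathway genes 1 was lower in late two-cell embryos (7.19% of all genes), 13 were lower and 5 higher in the ICM, and 10 lower and 3 higher in 2iES cells (25.7% and 21.6% of all genes). More genes passing is part of that alternative's construction. With library totals or all 18 libraries, 2 other pathway genes were higher in 2iES cells. For the DMSO groups, dropping the fold-change threshold gave 2 members lower from the late two-cell stage to the morula (32.2% of all genes), and 1 lower and 3 higher from the ICM to 2iES cells (16.9% and 18.2%), where library totals gave 4 lower. Leaving out 1 library at a time gave 0 to 1 members lower and 0 to 1 higher in late two-cell embryos, and 0 to 2 other pathway genes higher in 2iES cells. It gave 1 to 3 members lower from the late two-cell stage to the morula, 3 to 5 higher from the morula to the ICM, and 0 to 1 lower and 1 to 2 higher from the ICM to 2iES cells. For all other changes the cause was not tested. Over all genes, morula calls numbered 27 lower and 21 higher, 76 and 34 with library totals and 66 and 44 with DESeq2. DESeq2 called 132 genes higher in late two-cell embryos, against 83. From the ICM to 2iES cells, library totals called 3864 lower and 1260 higher, against 2515 and 2381. Ranking by TPM left the highest member of each DMSO stage as it was by FPKM. Depth limits *Fancg*, at 9 to 24 counts in the morula libraries, and *Fance* in treated 2iES cells.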
